A study of Mus musculus with 7 samples.

Results

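The T-cell receptor beta (Tcrb) and gamma (Tcrg) loci were examined for accessible chromatin in B-lineage progenitors. All peaks overlapping the span of the Trb or Tcrg segments annotated in GENCODE M21 were taken, with the outermost segments extended by 20 kb on each side. The Tcrb span ran from 40871229 to 41578452 on chromosome 6 (707.2 kb, 53 segments) and the Tcrg span from 19158024 to 19372756 on chromosome 13 (214.7 kb, 15 segments), on the mm10 build. The spans held 425 of the 647973 peaks of the 7 peak lists, 272 in Tcrb and 153 in Tcrg. Merging overlapping peaks of all libraries gave 97 regions, 68 in Tcrb and 29 in Tcrg, of 145247 in the genome.

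The 7 ATAC-seq libraries were each the only one of their group. WT libraries of pre-proB, proB and preB cells, successive stages of B-cell development, came from Ergfl/fl mice without Cre, whose Erg gene carries loxP sites and is intact. The Erg KO pre-proB library came from Rag1CreT/+;Ergdelta/delta mice, in which a Cre recombinase driven from Rag1 deletes Erg, an ETS-family transcription factor, from the common lymphoid progenitor onwards. Erg Rescue libraries of the same 3 stages came from Rag1CreT/+;Ergdelta/delta;IgHVH10tar mice, which carry the deletion and a knock-in Igh allele with a productively rearranged heavy chain. All were C57BL/6J mice, and no age was given per group. Stages were read from the sample titles. The source names contradicted them for every Rescue library, calling the titled pre-proB library proB, the titled proB library preB and the titled preB library pre-proB. With 1 library per group no spread between mice could be estimated, no significance test was possible, and every difference given here is between libraries.

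Antigen receptor loci hold variable (V), diversity (D), joining (J) and constant (C) segments, which the RAG recombinase joins in developing lymphocytes at recombination signal sequences beside the segments. Tcrb is assembled in T-cell progenitors from V, D and J segments under an enhancer that lies between Trbc2 and the inverted segment Trbv31, and Tcrg is made of several V, J and C clusters with enhancers downstream of the C segments. Neither locus is normally assembled completely in B cells, which instead join Igh and then light chain segments, and accessible chromatin is a requirement for recombination.

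The sequences below are those of the tallest elements of both loci and of the Tcrb D segments, taken from GRCm38. Trbd1 (chr6:41533170-41533254, plus strand) and Trbd2 (chr6:41542132-41542218, plus strand) are shown with the flanks that hold their recombination signals, with the heptamer on each side in capitals. Read away from the D segment, the heptamers of Trbd1 were CACAATG and CACGGTG, and both heptamers of Trbd2 were CACAATG. The D segments are shown because a peak covered Trbd2 in some libraries and Trbd1 in none.
Trbd1: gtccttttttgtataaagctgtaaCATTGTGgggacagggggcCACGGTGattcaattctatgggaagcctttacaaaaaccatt
Trbd2: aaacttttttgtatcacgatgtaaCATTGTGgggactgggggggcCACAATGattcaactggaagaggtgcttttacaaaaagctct

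The window of 300 bases around the summit between Trbc2 and Trbv31 (chr6:41554462-41554761, plus strand) is shown because it carried the tallest peak of either locus in pre-proB cells. The 200 bases around the summit downstream of Trbv20 (chr6:41189010-41189209, plus strand) are shown because this was the tallest peak over a V segment in pre-proB cells. Capitals mark the letters TGTGGT, the core bound by RUNX factors, and AGGAAG, an ETS core, on either strand.
3′ of Trbc2: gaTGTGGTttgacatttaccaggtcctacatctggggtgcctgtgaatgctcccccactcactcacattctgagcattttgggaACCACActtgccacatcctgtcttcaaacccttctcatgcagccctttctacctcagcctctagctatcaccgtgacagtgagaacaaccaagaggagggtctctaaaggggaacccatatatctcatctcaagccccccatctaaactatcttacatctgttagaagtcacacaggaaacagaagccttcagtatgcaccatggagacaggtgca
3′ of Trbv20: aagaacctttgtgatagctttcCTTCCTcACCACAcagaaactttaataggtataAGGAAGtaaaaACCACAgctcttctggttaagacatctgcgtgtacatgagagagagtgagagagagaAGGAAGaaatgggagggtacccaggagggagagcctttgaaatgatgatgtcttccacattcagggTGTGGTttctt

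The elements downstream of Tcrg-C1 (chr13:19219721-19219920, plus strand), Tcrg-C3 (chr13:19272884-19273079, plus strand) and Tcrg-C2 (chr13:19300470-19300669, minus strand) are shown over the same stretch, set by aligning each region to the first, because they are near copies that differed in accessibility. Capitals mark the same letters.
3′ of Tcrg-C1: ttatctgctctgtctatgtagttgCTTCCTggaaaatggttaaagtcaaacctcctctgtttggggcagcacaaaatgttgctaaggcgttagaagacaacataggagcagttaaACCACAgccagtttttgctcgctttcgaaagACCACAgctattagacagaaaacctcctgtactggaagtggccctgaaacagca
3′ of Tcrg-C3: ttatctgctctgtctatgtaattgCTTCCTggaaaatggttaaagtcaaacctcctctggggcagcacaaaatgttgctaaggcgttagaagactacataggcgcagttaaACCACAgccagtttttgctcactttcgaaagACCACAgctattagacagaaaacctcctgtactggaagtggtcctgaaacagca
3′ of Tcrg-C2: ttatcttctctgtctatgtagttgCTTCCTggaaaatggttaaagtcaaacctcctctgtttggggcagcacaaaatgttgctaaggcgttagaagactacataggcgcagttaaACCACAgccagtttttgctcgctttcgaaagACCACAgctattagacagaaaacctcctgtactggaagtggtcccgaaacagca

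The lists held 76465 to 105649 peaks, and read totals per library were not used here. The background pileup, the fragments per base that the peak caller took as background, lay between 3.49 and 4.6, and no called summit had fewer than 10 to 12 fragments, a fold of 2.32 to 2.63 over background. A region without a peak could therefore still hold some fragments. Folds below are the summit pileup over the background pileup, each raised by 1, with 95% exact Poisson intervals that cover counting error only. The median fold over the 46442 regions with a peak in every library lay between 14.5 and 17.9, so folds differed between libraries by about this much over shared regions in general. In bulk libraries, fewer accessible cells and less accessibility per cell cannot be told apart.

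Across the WT stages, pre-proB to preB, Tcrb held 50, 41 and 17 peaks, which were 0.0523%, 0.0447% and 0.0222% of lists that differed in length. The Erg KO library had 52 Tcrb peaks, and the Rescue stages had 55, 36 and 21. Tcrb peaks were thus fewest in the preB libraries of both genotypes. With the stages of the source names the Rescue order would be 21, 55 and 36. Tcrg held 24, 20 and 16 peaks over the WT stages, 25 in the Erg KO library and 23, 25 and 20 over the Rescue stages. Without the flanks of 20 kb the Tcrg counts over the WT stages were 20, 13 and 10. Peaks covered 4.13% of the Tcrb span in WT pre-proB and 1.08% in WT preB, and 6.71% and 4.53% of the Tcrg span. The Igk light chain locus, measured in the same libraries, went the other way, with 71, 218 and 234 peaks over the WT stages and 78 in the Erg KO library. The Tcra and Tcrd locus had 66, 47 and 19 peaks over the WT stages, 97 in the Erg KO library and 95, 62 and 64 over the Rescue stages. Lists cut to equal length, the best 76465 peaks of each, held 41, 32 and 17 Tcrb peaks over the WT stages. They held 45 in the Erg KO library and 44, 32 and 20 over the Rescue stages. Lists of 38232 peaks, the most stringent setting, left 14, 10 and 6 Tcrb peaks over the WT stages and 17 in the Erg KO library.

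**Figure D1:**
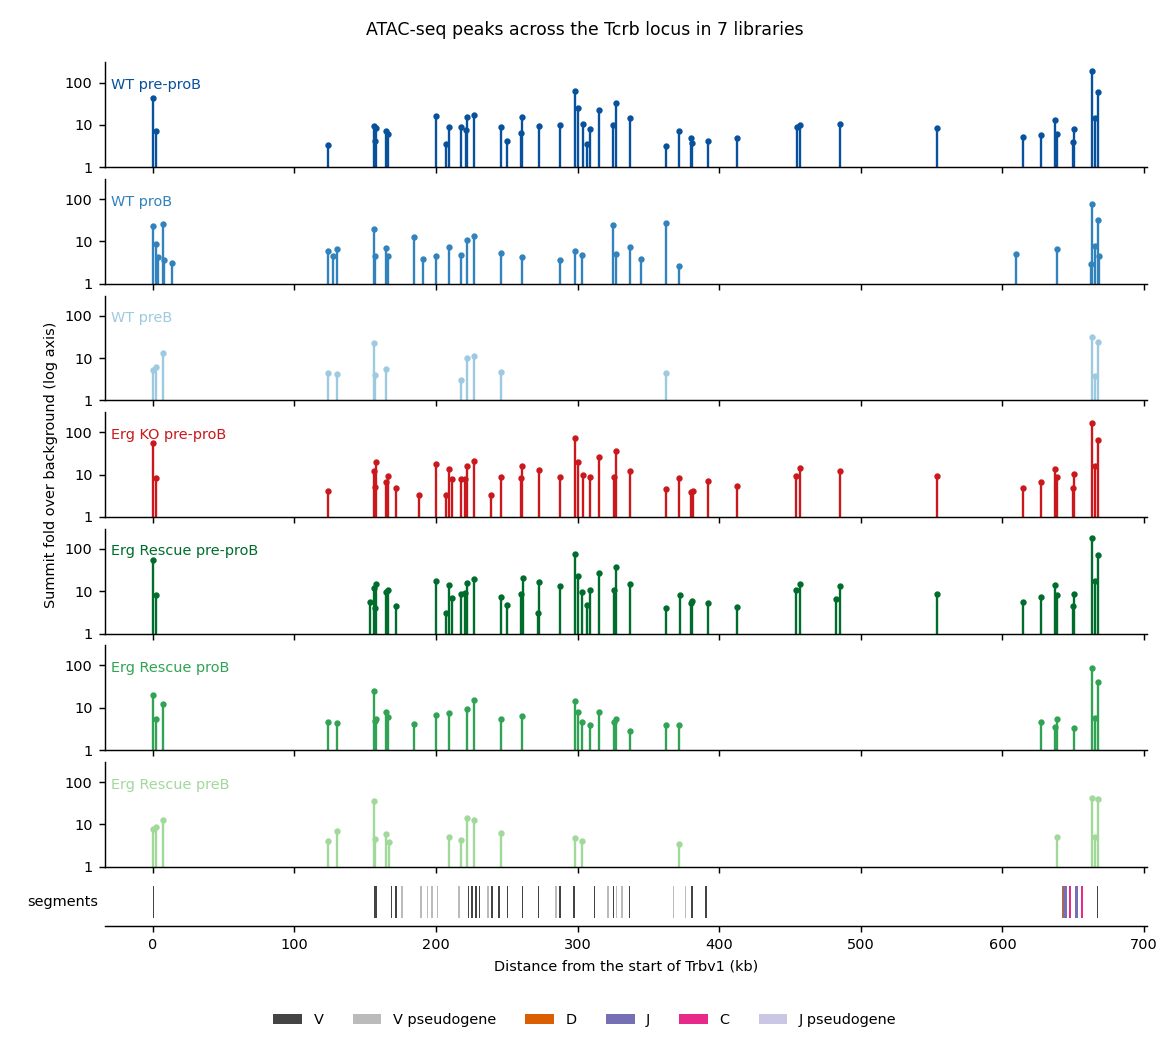
Peaks of the Tcrb locus in each of the 7 libraries, as the fold over background at the summit (log axis) against the distance from the start of Trbv1 in kb, with the V, D, J and C segments in the bottom row. The highest peak, between the C segments and Trbv31, reached a fold of 185 in WT pre-proB and 30.7 in WT preB, and the stretch between Trbv30 and Trbd1 had 10 peaks in the first of these libraries and 0 in the second.

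The element between Trbc2 and Trbv31 (6:41553885 to 41555617), in the interval of the Tcrb enhancer, was the most accessible of either locus in the pre-proB libraries. Over the WT stages its fold was 185 (173 to 197), 78.8 (71.5 to 86.7) and 30.7 (25.8 to 36.2). It was 169 (159 to 181) in the Erg KO library and 181 (170 to 193), 86.2 (77.8 to 95.2) and 42.3 (36.7 to 48.5) in Rescue pre-proB, proB and preB. The 3 pre-proB libraries were the highest, with overlapping intervals, and the proB and preB libraries followed in the same order in both genotypes. Ranked by q, it was in the top 0.268% of the WT pre-proB list and the top 19.8% of the WT preB list. Its 300-base window held the RUNX letters at 2 places and no AGGAAG. This was the only ETS sequence searched, so other ETS cores in the window were not counted. A smaller neighbour (6:41556275 to 41556966), 725 bp from Trbv31, was also present everywhere, with folds from 3.73 in WT preB to 17.5 in Rescue pre-proB. A further peak of this interval (6:41553430 to 41553806) was called in WT proB alone, with a fold of 2.95.

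Little of the Tcrb recombination centre itself was called. No library had a peak between the start of Trbd1 and the end of Trbc1, a stretch of 6681 bp, and none had a peak over any of the 14 annotated Tcrb J segments or over Trbc1 or Trbc2. Reads could be placed there, since 95.3% of the 75-base stretches starting in this interval occurred once in GRCm38. Trbd2 lay under a peak in the pre-proB libraries only (6:41541635 to 41542274). The fold there was 8.14 (5.9 to 11) in WT, 10.6 (8.09 to 13.7) in Erg KO and 8.76 (6.5 to 11.6) in Rescue, with overlapping intervals. Rescue proB had a peak of 3.34 in the same region that did not reach the segment. Both heptamers of Trbd2 shown above lay inside the pre-proB peaks. A weaker region 903 bp past Trbc1 (6:41540784 to 41541169) had folds of 3.88, 4.76 and 4.47 in the WT, Erg KO and Rescue pre-proB libraries and no peak elsewhere.

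**Figure D2:**
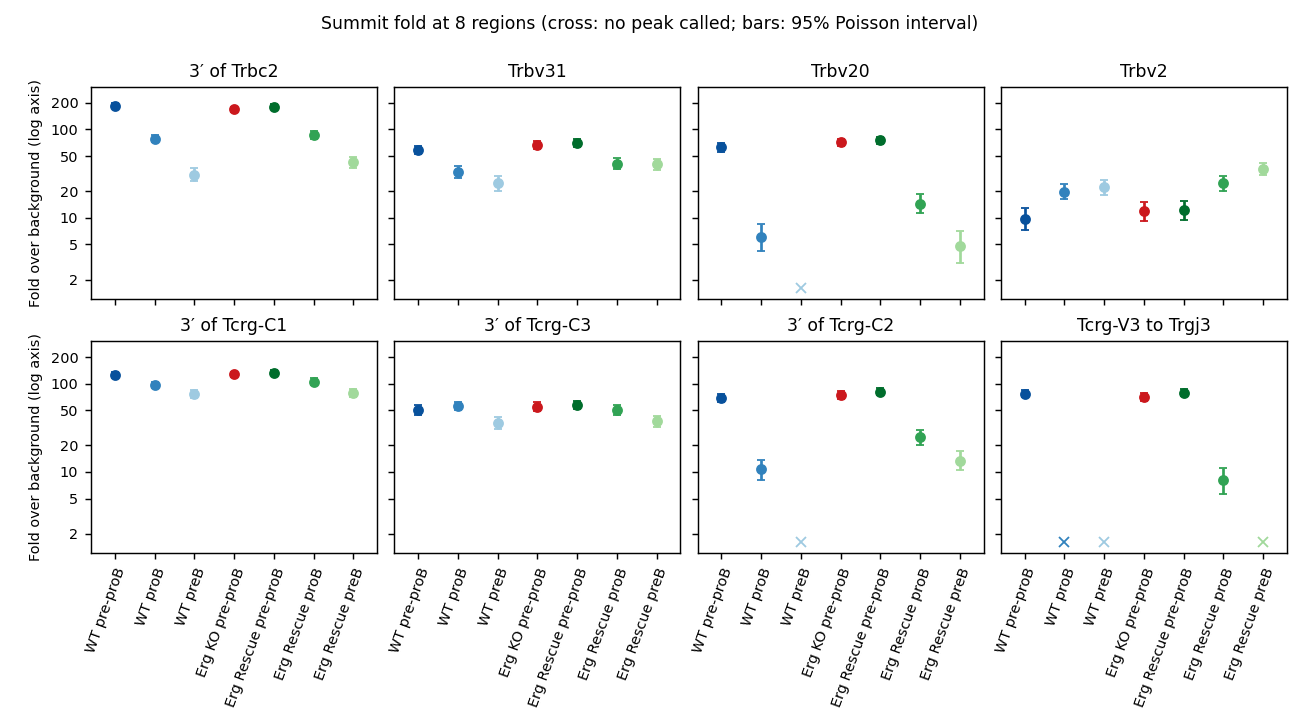
Summit fold over background (log axis) in the 7 libraries at 8 regions of Tcrb (upper row) and Tcrg (lower row), with 95% Poisson intervals as bars and a cross where no peak was called. The 3 pre-proB libraries sit together in every panel, Trbv2 is higher at the later stages, and the element downstream of Tcrg-C2 is low or not called at preB where those downstream of Tcrg-C1 and Tcrg-C3 stay above a fold of 35.

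Trbv31, the V segment that lies inverted beyond the C segments, had a peak in every library. Its fold was 58.7 (52.3 to 65.7), 33 (28.4 to 38.2) and 24.5 (20.2 to 29.5) in the WT stages, 66.5 (59.9 to 73.7) in the Erg KO library and 70.8 (64 to 78.1), 41.2 (35.5 to 47.6) and 40.4 (35 to 46.5) in Rescue. The fold was lower at preB than at pre-proB in both genotypes, and was the highest of any V segment in both preB libraries. At the other end of the locus, Trbv1 also had a peak in every library. Its folds were 43.6, 23.4 and 5.26 in WT, 54.6 in the Erg KO library and 53.6, 20.5 and 7.63 in Rescue.

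Among the 22 functional Tcrb V segments, 13, 9 and 4 lay under a peak over the WT stages. The count was 14 in the Erg KO library and 14, 8 and 5 over the Rescue stages. Over all libraries 16 were covered at least once, and Trbv1, Trbv2 and Trbv31 were covered in all 7. Of the 13 V pseudogenes only Trbv24 was covered, with folds of 33 and 5.17 in WT pre-proB and proB, 35.9 in Erg KO, and 38.2 and 5.35 in Rescue pre-proB and proB.

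Among Tcrb V segments covered in both WT pre-proB and WT proB, Trbv20 had the lowest ratio of proB to pre-proB fold. Its fold was 62.6 (56 to 69.8) and 6.09 (4.23 to 8.52) at the WT pre-proB and proB stages, and WT preB had no peak. It was 71.5 (64.6 to 78.9) in the Erg KO library and 75.1 (68.1 to 82.6), 14.5 (11.2 to 18.4) and 4.75 (3.05 to 7.08) in Rescue. The 3 pre-proB values were again the highest and the preB values the lowest. Its summit lay just past the segment, and the 300 bases around it held the RUNX letters at 4 places and the ETS letters at 3. Regions 1868 bp and 5459 bp downstream of Trbv20 had WT pre-proB folds of 24.8 and 10.7. The first of these had no WT proB peak, and the second had one of 4.8.

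Trbv2 went against this order. Over the WT stages its fold was 9.69 (7.22 to 12.8), 19.8 (16.2 to 23.9) and 22.4 (18.3 to 27.1). It was 11.9 (9.21 to 15.2) in the Erg KO library and 12.2 (9.46 to 15.4), 24.5 (20.2 to 29.5) and 35.7 (30.6 to 41.4) in Rescue. The pre-proB values lay below all 4 proB and preB values, and their intervals did not overlap. Regions upstream of Trbv12-1 and Trbv12-2 were present everywhere with a smaller range. Their folds lay between 9.35 and 15.7 and between 11.4 and 21.1.

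Where the peaks lay relative to the V segments differed between the loci. Of 83 peaks over Tcrb V segments, counted over all libraries, 27 had their summit upstream of the segment, at 9 segments. Another 17 had it inside, at 7 segments, and 39 downstream, at 12. Of 28 peaks over Tcrg V segments, 23 had the summit upstream, at 4 segments, and 5 downstream, at Tcrg-V5 alone. A segment was counted again in each library that covered it, so these peaks were not independent, and the difference between the loci was not tested. A heptamer starting with CAC was found within 3 bp of the 3′ end of 21 of the 22 functional Tcrb V segments, and 10 of them lay under a peak in at least 1 library. In Tcrg such a heptamer was found at all 7 V segments and lay under a peak at Tcrg-V5 alone.

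**Figure D3:**
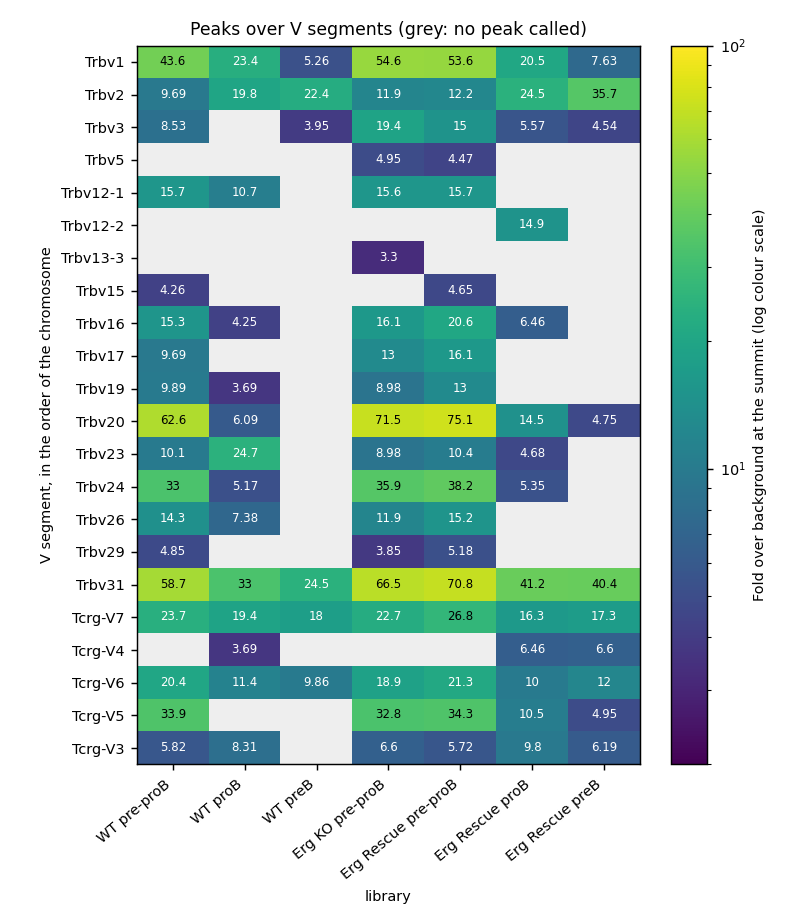
Summit fold over background (log colour scale, value printed in each cell) of the peaks covering each V segment, for the V segments of Tcrb and Tcrg covered in at least 1 library, in the order of the chromosome, with grey cells where no peak covered the segment. Trbv20 and Trbv24 are bright in the 3 pre-proB columns and dim or grey in the proB and preB columns, and Trbv2 has its highest value, 35.7, in Rescue preB.

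The stretch from the end of Trbv30 to Trbd1, 251210 bp that hold trypsinogen genes and pseudogenes rather than V segments, had called peaks mainly in the pre-proB libraries. It had 10, 2 and 0 peaks over the WT stages, whose lists differed in length, against 10 in the Erg KO library and 11, 3 and 1 over the Rescue stages. Of its 75-base stretches 84.3% were unique in GRCm38. Its WT pre-proB peaks had folds from 4.26 to 13. The tallest in WT pre-proB, 4532 bp from Trbd1 (6:41527984 to 41528669), had folds of 13, 13.4 and 14.3 in the WT, Erg KO and Rescue pre-proB libraries. It had a fold of 3.56 in Rescue proB and no peak in the others. Of 5 exocrine pancreas genes, Prss2, Cpa1, Ptf1a and Amy2a5 had no promoter peak in any library, and Cela1 had one of 3.88 in WT proB and 4.23 in Rescue proB.

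In Tcrg the element downstream of Tcrg-C1 (13:19219096 to 19221028), 2072 bp past the segment, was the most accessible of its locus, and of both loci in the proB and preB libraries. Over the WT stages its fold was 126, 96.2 and 76.9. It was 128 in the Erg KO library and 133, 105 and 77.8 in Rescue. It was lowest in the preB libraries of both genotypes, by less than the Tcrb element, which went from 185 to 30.7 over the WT stages. A smaller region 4516 bp past Tcrg-C1 (13:19221540 to 19222066) was also in every library, with folds from 6.36 in WT preB to 14.6 in WT proB. The element 8714 bp past Tcrg-C3 (13:19272242 to 19273762) had folds of 50.6, 55.8 and 35.9 in WT, 54.6 in the Erg KO library and 57.7, 50.1 and 37.5 in Rescue. It too was present in every library.

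The third element, 3401 bp past Tcrg-C2 (13:19300114 to 19301248), behaved differently. Its fold was 69 (62 to 76.6) and 10.7 (8.15 to 13.8) at the WT pre-proB and proB stages, with no peak at preB. It was 74.8 (67.7 to 82.4) in the Erg KO library and 81.3 (74 to 89.1), 24.7 (20.4 to 29.8) and 13.4 (10.4 to 17.1) in Rescue. The pre-proB libraries were highest, Rescue proB lay above WT proB, and Rescue preB had a peak where WT preB had none. In sequence the 3 elements were near copies. The region past Tcrg-C3 was identical to that past Tcrg-C1 at 97.6% of 1481 aligned bases, and the region past Tcrg-C2 at 94.4% of 1123. Over the stretches printed above the identity was 97.4% and 97.5%, and each of the 3 held the RUNX letters at 2 places and the ETS letters once. Of their 75-base stretches 76.6%, 65.7% and 79.5% were unique in GRCm38, in the order C1, C3 and C2, so part of their reads could not be placed on 1 copy alone, and how the peak lists treated such reads was not given.

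The Tcrg C segments themselves were covered in pre-proB cells. A region at the 3′ end of Tcrg-C1 (13:19216426 to 19216959) had folds of 13.8, 16.5 and 17 in the WT, Erg KO and Rescue pre-proB libraries and 3.79 in Rescue proB. The corresponding regions at Tcrg-C3 (13:19263197 to 19263741) and Tcrg-C2 (13:19304760 to 19305385) had pre-proB folds of 14.3, 14.1 and 20.9 and of 10.9, 11.9 and 14.1. Neither had a peak in any proB or preB library, and WT proB and preB had none at Tcrg-C1. These regions were also near copies, with 95.1% to 97.2% identity, and 67%, 70.5% and 87.4% of their 75-base stretches were unique in the order C1, C3 and C2. A second, narrower peak over Tcrg-C1 (13:19215192 to 19215396) was called in Rescue proB alone, at 3.79. Tcrg-C4 had none, and no library had a peak from Tcrg-V1 to the end of Tcrg-C4, a stretch of 12768 bp in which 98.1% of 75-base stretches were unique. Downstream of it, within Stard3nl, 13:19356160 to 19358554 had folds of 6.46 and 12.3 in WT proB and preB, 2.93 in the Erg KO library and 8.91 and 21.7 in Rescue proB and preB. A region of 13:19362392 to 19362591 was called in Rescue preB alone, at 3.3.

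The tallest region that WT pre-proB had and WT proB lacked lay between Tcrg-V3 and Trgj3 (13:19246352 to 19247226). Its fold was 77.2 in WT, 71.1 in Erg KO and 79.3 in Rescue pre-proB. Rescue proB had a peak of 8.02 there, and WT proB, WT preB and Rescue preB had none. Of its 75-base stretches 62.6% were unique. A region 5046 bp before Trgj1 (13:19204456 to 19205297) had folds of 25.6, 26.6 and 34.8 in the WT, Erg KO and Rescue pre-proB libraries, none in WT proB but 3.95 in WT preB, with 10 and 8.46 at the later Rescue stages. Both were more accessible in pre-proB cells than later.

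Among the Tcrg V segments, Tcrg-V7 was steady. Its folds were 23.7, 19.4 and 18 in WT, 22.7 in the Erg KO library and 26.8, 16.3 and 17.3 in Rescue. Tcrg-V6 had folds of 20.4, 11.4 and 9.86 in WT, 18.9 in the Erg KO library and 21.3, 10 and 12 in Rescue. The region of Tcrg-V5 differed most, with 33.9 and 3.69 in WT pre-proB and proB and no peak in WT preB, 32.8 in Erg KO and 34.3, 10.5 and 4.95 in Rescue. Tcrg-V4 was covered in WT proB, Rescue proB and Rescue preB alone, at 3.69, 6.46 and 6.6. A region 2122 bp before it (13:19181839 to 19182852) was open in all libraries, with folds from 20.9 in WT pre-proB to 39.3 in WT proB. Trgj1 to Trgj4 had no peak in any library.

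**Figure D4:**
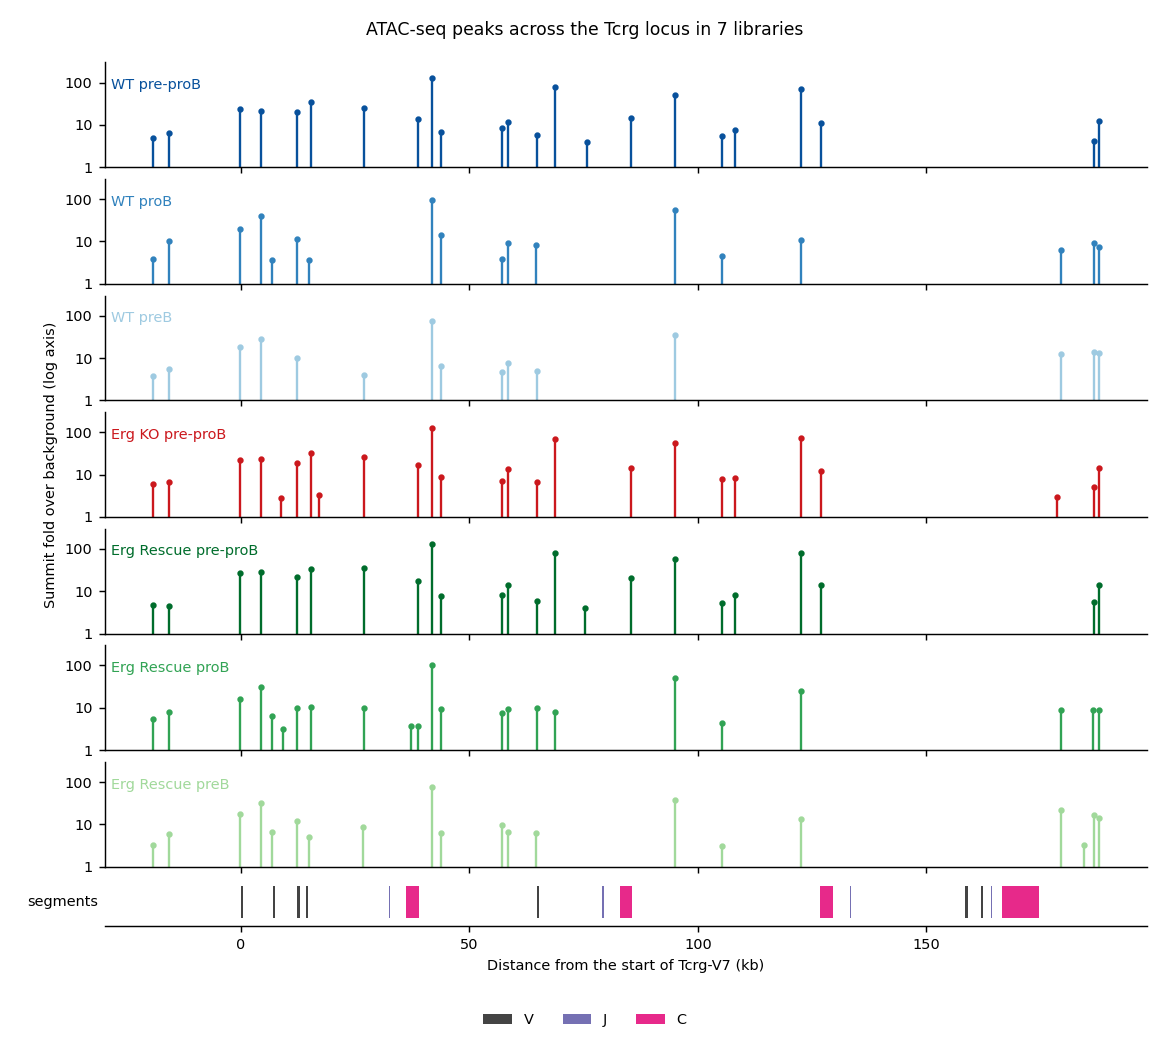
Peaks of the Tcrg locus in each of the 7 libraries, as the fold over background at the summit (log axis) against the distance from the start of Tcrg-V7 in kb, with the segments in the bottom row. The element past Tcrg-C1 is the highest in every library, at 76.9 to 133, and the stretch of Tcrg-V1 to Tcrg-C4 is empty in all of them.

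The Erg KO library was set against WT pre-proB to compare the genotypes within 1 stage, and these libraries also differed in the presence of Rag1Cre. Erg KO cells lacked 4 of the 74 WT peaks (5.41%, 95% Wilson interval 2.12 to 13.1%), against 6.88% of the whole WT list. WT cells lacked 7 of the 77 Erg KO peaks (9.09%, 4.47 to 17.6%), against 13.6% of the whole list. Both shares lay near those of the whole lists. The tallest WT peaks without an Erg KO peak were at Trbv15 (6:41140964 to 41141249), with a fold of 4.26, and at 13:19235833, with 4.07. The next was at 13:19253183 to 19253870, with 3.88. Rescue pre-proB, also Erg-deficient, had a peak at Trbv15, with 4.65, and in this last region, with 3.93. The peak of 4.07 was a minor one in a region (13:19235833 to 19236804) where every library had a peak. The highest fold of that region was 11.8 for the WT library of this stage and 13.6 for the Erg KO library. The tallest in the other direction were at 6:41102046 to 41102451, with 8.06, and at Trbv5 (6:41062729 to 41063148), with 4.95, followed by 3 regions at 3.3 each, at Trbv13-3, near Trbv7 and near Tcrg-V5. Apart from the region at 6:41102046, the folds of these unshared peaks lay below 5. The Erg KO median over Tcrb peaks was 8.98, against 8.06 at 6:41102046. At the 69 regions with a peak in both libraries, the median ratio of Erg KO to WT fold was 1.11, against 1.04 over 84912 regions of the genome, and it ranged from 0.794 to 2.28. The highest ratio was at Trbv3, whose region (6:41048552 to 41049242) had a fold of 8.53 in WT, 19.4 in Erg KO and 15 in Rescue pre-proB.

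The regions at 6:41102046 and Trbv5 were the only ones in Erg KO and Rescue pre-proB and in no WT library, with Rescue folds of 6.97 and 4.47. They made up 2.06% (0.567 to 7.21%) of the 97 regions, against 3.92% of the genome's regions. No region was in the 3 WT libraries and in neither of the Erg-deficient pre-proB libraries (0 of 97, interval 0 to 3.81%), against 1.33% of the genome's regions. Of the 74 WT pre-proB peaks, 1 (1.35%, 0.239 to 7.27%) had no Rescue pre-proB peak, against 5.88% of the list, and 5 of 78 Rescue peaks (6.41%, 2.77 to 14.1%) had no WT peak, against 15.6%. The Rescue share was below that of its list with an interval that does not reach it. This interval treats peaks as independent and covers counting error only.

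Between WT stages more peaks were unshared. From pre-proB to proB, 31 of 74 peaks (41.9%, 31.3 to 53.3%) were not found again, against 34.1% of the list, 23 of 50 in Tcrb and 8 of 24 in Tcrg. In the other direction 16 of 61 WT proB peaks (26.2%, 16.8 to 38.4%) had no pre-proB peak, against 31.9%. From proB to preB, 28 of 61 peaks (45.9%, 34 to 58.3%) were not found again, against 26.7% of the list. Of these, 24 were among the 41 Tcrb peaks (58.5%, 43.4 to 72.2%) and 4 among the 20 Tcrg peaks (20%, 8.07 to 41.6%). Of 33 WT preB peaks, 1 (3.03%, 0.537 to 15.3%) had no proB peak, against 10.7%, so nearly all preB peaks of these loci lay where proB cells had one. The Tcrb share lost from proB to preB lay above the share of the whole list. The WT proB peaks of Tcrb were weaker than their list, with a median fold of 5.17 against 7.75. Those lost had a median of 4.43, against 8.86 for those shared. With lists of equal length, 36% of the proB peaks of both loci were lost, against 18.6% of the list. The part of peak height in these shares was not tested.

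**Figure D5:**
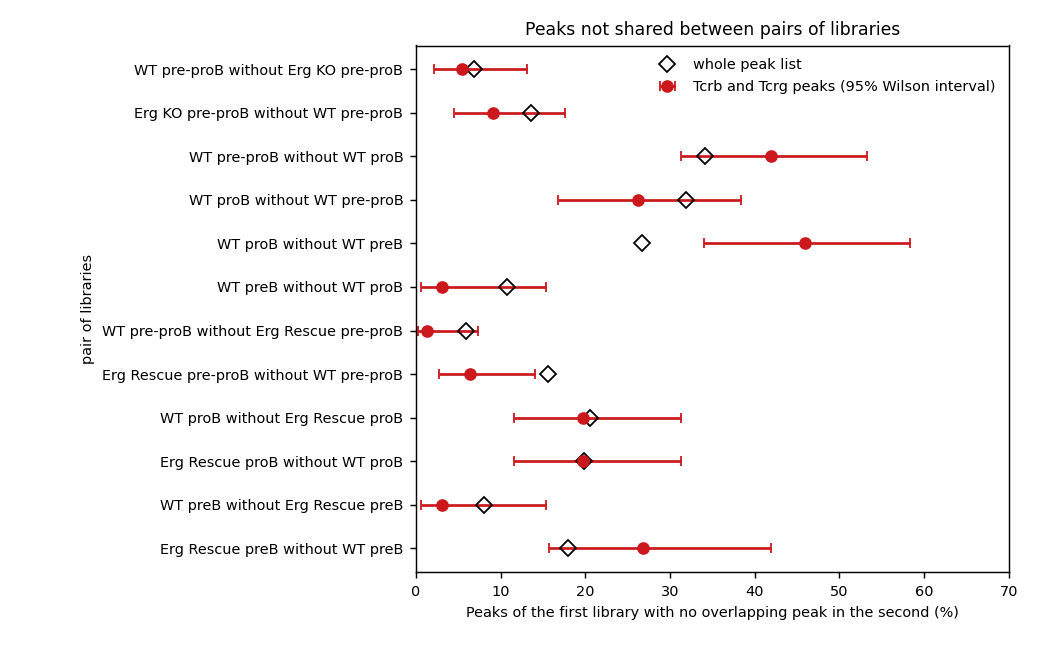
Share of the peaks of the first library without an overlapping peak in the second, in percent, for 12 pairs of libraries, with filled circles and 95% Wilson intervals for the Tcrb and Tcrg peaks and open diamonds for the whole list. The share for WT proB without WT preB, 45.9%, lies furthest above its list value, 26.7%.

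At the regions present in both stages, the median ratio of WT proB to WT pre-proB fold was 0.738 over 42 regions, against 0.952 over 59510 regions of the genome, and that of WT preB to WT proB was 0.752 over 30 regions, against 1.04 over 64233. The tallest WT proB peaks without a pre-proB peak were at 6:40898278 to 40898884, within Prss58, at 6:41075564 to 41076154 and at 6:41021019 to 41021515. The first had folds of 26.2 and 12.9 in WT proB and preB, 12.3 and 12.6 in Rescue proB and preB, and no peak in any pre-proB library. The third had the same pattern, with 6.83, 4.16, 4.45 and 7.01. The Prss58 region and that at 6:41021019 were the only regions in all 4 proB and preB libraries and in no pre-proB library, 2.06% of the 97, against 5.19% of the genome's regions. The second had a fold of 12.9 in WT proB and 4.23 in Rescue proB. A region within Gm2719 (6:41252993 to 41253862), named after its values were seen, had a fold of 27.9 in WT proB and 3.1 to 4.58 in the other libraries that had a peak there, with 51.4% of its 75-base stretches unique. WT proB had 9 regions of its own in Tcrb and none in Tcrg (9.28% of the 97, against 6.48% of the genome's regions).

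For the Rescue genotype at the later stages, 12 of 61 WT proB peaks (19.7%, 11.6 to 31.3%) had no Rescue proB peak, against 20.6%, and 12 of 61 Rescue proB peaks had no WT peak, against 19.8%. All 12 of the WT peaks were in Tcrb. At preB, 1 of 33 WT peaks (3.03%) had no Rescue peak, against 8.02%, and 11 of 41 Rescue peaks (26.8%, 15.7 to 41.9%) had no WT peak, against 17.9%. Of the 31 WT pre-proB peaks that WT proB lacked, Erg KO pre-proB held 27 (87.1%, 71.1 to 94.9%) and Rescue pre-proB all 31, against 92.3% and 93.9% of the lost peaks of the list. Rescue proB held 11 of the 31 (35.5%, 21.1 to 53.1%), against 33.7% of the lost peaks of the list. Rescue preB and WT preB each held 1 (3.23%, 0.572 to 16.2%), against 16% and 8% of the list's. The shares at proB were thus close to those of the whole lists.

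Over all libraries, 24 of the 97 regions (24.7%, 17.2 to 34.2%) had a peak in every one, 11 of 68 in Tcrb and 13 of 29 in Tcrg, against 32% of the genome's regions. Those of the 24 not described above were low. They had folds between 3.3 and 16.9 and included 2 regions within Stard3nl and the region of Tcrg-V3. Another 26 regions (26.8%, 19 to 36.4%) were in the 3 pre-proB libraries and in neither WT proB nor WT preB, 21 in Tcrb and 5 in Tcrg, against 17.7% of the genome's regions. The share of regions open throughout was larger in Tcrg than in Tcrb, and the difference was not tested.

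Short motifs were counted in windows of 300 bases around the highest summit of each region, on both strands, and a match is only a run of letters. The RUNX letters TGTGGT were in 36.1% (27.2 to 46%) of the 97 windows and 32.1% of all 145247. The ETS letters AGGAAG, of the family Erg belongs to, were in 46.4% (36.8 to 56.3%) and 48%, and the E-box CAGCTG in 26.8% and 25.5%. The letters AGATAA, read by GATA factors, were in 21.6% (14.6 to 30.8%) and 12.5%. A CTCF consensus was in 3 windows (3.09%) and 3.63%. Among the 24 regions open in every library 17 held AGGAAG (70.8%, 50.8 to 85.1%), against 7 of the 26 pre-proB regions (26.9%, 13.7 to 46.1%). AGATAA was in 9 of the 26 (34.6%, 19.4 to 53.8%). For the other counts in the 97, the 24 and the 26 windows, the genome's share lay inside the interval. The genome's share was not counted apart for regions of either pattern, so the contrast in AGGAAG was not compared with other loci. The intervals treat windows as independent, but both sets hold near copies. These are the elements past Tcrg-C1 and Tcrg-C3 among the 24, and the regions at Tcrg-C1, Tcrg-C3 and Tcrg-C2 among the 26.

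Genes that work with these loci were examined by their promoters, 1000 bp on either side of a start site. Promoter counts, here and for the gene lists below, were not set beside the share of all promoters with a peak, and the peak lists differed in length. Of 10 genes of the T-cell receptor complex and its signalling, 7, 4 and 3 had a promoter peak over the WT stages, against 7 in the Erg KO library and 7, 5 and 4 over the Rescue stages. Cd3d, Cd3e, Cd3g, Cd247, Lck and Zap70 of this list are also among the T-lineage genes given below, so the counts of both lists overlap. Ptcra, the partner of the beta chain in the pre-T-cell receptor, had folds of 12.8, 12.1 and 12.2 in the WT, Erg KO and Rescue pre-proB libraries and no peak elsewhere. Cd3g, a signalling chain of the receptor, had folds of 10.5, 13 and 15 in the same libraries and 3.56 in Rescue proB. Its partners Cd3d and Cd3e, and the kinase Zap70, had no promoter peak in any library.

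Of 10 recombination genes, 9 had a promoter peak in each pre-proB and proB library and 8 in each preB library, and Nhej1 had none. Rag1, a subunit of the recombinase, had folds of 32.2, 52.2 and 64.4 in WT, 32.6 in the Erg KO library and 36.3, 45.7 and 67.9 in Rescue. Dntt, which adds nucleotides at the joins, had folds of 25 and 3.32 in WT pre-proB and proB, 9.16 in the Erg KO library, and 9.47 and 4.45 in Rescue pre-proB and proB. Rag1 was thus higher at later stages and Dntt lower.

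Of 16 regulators of the loci, 14 to 16 had a promoter peak in each library. Runx3, which encodes a RUNX factor of T cells, had folds of 87.2, 42.6 and 13.6 in WT and 89.8 in the Erg KO library. In Rescue it had 96, 46.1 and 16.1, so it fell over the stages, as did the Tcrb enhancer interval. Runx1, also a RUNX gene, rose instead, with 43, 47.1 and 62 in WT and 43.1, 52.3 and 59.2 in Rescue. Cbfb had 86.5, 66.6 and 71.9 in WT and 104, 77.1 and 76.3 in Rescue. Gata3, required in early T cells, also rose over the stages, with 51.6, 80.1 and 92.7 in WT. It had 63.9 in the Erg KO library and 60.9, 96 and 110 in Rescue. WT pre-proB had no promoter peak at Tcf7 and Bcl11b, both T-lineage factors, where Erg KO pre-proB had folds of 5.13 and 3.66 and Rescue pre-proB 4.83 and 3.22. Later WT stages had higher folds, with 10.3 and 17.1 at Tcf7 in proB and preB and 7.38 at Bcl11b in proB.

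Markers of the labelled cells and of other lymphocytes were checked in the order of the WT stages, Erg KO pre-proB and the Rescue stages. Of 10 B-lineage genes, 9, 10, 10, 5, 6, 10 and 10 had a promoter peak, and Pax5, Vpreb1 and Pou2af1 had none in the Erg KO and Rescue pre-proB libraries. Their WT pre-proB folds were 3.68, 8.53 and 7.37, where the lowest called fold of that list was 2.52 and its median 8.92. The 5 genes with an Erg KO promoter peak were Cd79b, Ebf1, Igll1, Blnk and Cd22. Ebf1 had folds of 21.5, 24.4 and 23.6 in the WT, Erg KO and Rescue pre-proB libraries, and Igll1 had 25, 20.9 and 21.6. The paper describes the Ebf1 and Pax5 loci as still accessible in Erg KO pre-proB cells, and only promoters were examined here. Of 10 T-lineage genes, 5, 5, 1, 7, 7, 5 and 3 had a promoter peak, and Cd3d, Cd3e and Zap70 had none in any library. Summed folds were 75.1, 64, 8.55, 75.6, 95.6, 43.4 and 16.1. Cd8a had folds of 19.2 in WT pre-proB, 20.5 in Erg KO and 30.2 and 6.9 in Rescue pre-proB and proB, with no peak elsewhere. Thy1 had 22.3 and 24.7 in WT pre-proB and proB, 8.25 in Erg KO and 18.4, 13.1 and 4.33 in Rescue. Lck had 12.2, 22.9 and 8.55 over the WT stages, and Cd4 had a WT peak at proB alone, of 3.14. Of 10 NK and innate lymphoid genes, 7, 6, 4, 7, 7, 6 and 3 had a promoter peak, and Ncr1 and Gzmb had none in any library. Summed folds were 233, 155, 154, 242, 276, 182 and 175. Klrb1c had folds of 39.5 and 5.54 in WT pre-proB and proB, 35.2 in Erg KO, and 49.7 and 3.12 in Rescue pre-proB and proB. Klrd1 had 77.9, 28.6 and 21 over the WT stages, 84.1 in Erg KO and 89.7, 32.7 and 22.1 in Rescue. Eomes and Id2 rose instead over the WT stages, with 4.07, 8.12 and 8.33 and with 95.4, 104 and 121. Tbx21 had no peak in any pre-proB library. The T-lineage counts were lowest in the preB libraries, as were the Tcrb peak counts, and the part of such cells in the results was not tested.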

How the data were processed

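ATAC-seq peak lists of 7 libraries, 1 per group, were analysed, with groups taken from the sample titles. Paired-end reads were aligned to mm10 with Bowtie2 and each library's peaks were called with MACS2. The submitters' processing notes also name CASAVA 1.8.2 and Picard. Other versions, the caller's settings, the handling of duplicate or multiply placed reads and any shift of read ends: not given in the sources used here. For fragmentation the study's methods name sonication and the labels Tn5. Settings of this kind can change the number and width of peaks.

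The authors deposited a score, a fold (the ratio of summit to background pileup, each plus 1), −log10 p and −log10 q values and a summit offset for each peak. Peaks were ranked by −log10 q. Within a library all folds (100%) were multiples of a single increment, to a tolerance of 0.02 increments, and the background and summit pileups were derived from it.

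An overlap of 1 bp or more counted as shared. Overlapping peaks of all libraries were merged into regions. Shares have Wilson intervals at 95%, which cover counting error and treat peaks as independent. No test was run. Promoters were taken from the GENCODE M21 basic annotation, on the same build as the files. The uniqueness of sequence was the share of 75-base stretches found once on either strand of GRCm38, and sequences were read from the RefSeq copy of that assembly. Local alignments scored 2 for a match, -3 for a mismatch, -5 to open and -2 to extend a gap.

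Regions named with values were those over D, J or C segments, between Trbc2 and Trbv31 or within 10 kb downstream of a Tcrg C segment, those in all 7 libraries, the 3 tallest in each direction of WT against Erg KO pre-proB and of WT pre-proB against WT proB, and those in both Erg-deficient pre-proB libraries but no WT library or the reverse. V segments and their neighbouring regions, the trypsinogen stretch, Trbv3 and the regions beside Trbc1 and Trgj1 were added after their values were seen. The segments, lists and regions were chosen with earlier results of these data known. Overlaps, merging, the step and the sequence count were checked on simulated data. Python 3.11.15, numpy 2.4.6, pandas 2.3.3, scipy 1.17.1 and matplotlib 3.10.9 were used.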

Additional observations from a re-analysis of the deposited data

Results flagged for a closer look

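The region of Trbv23 (6:41215672 to 41217246) moved in opposite directions between genotypes. The ratio of proB to pre-proB fold was 2.45 in WT, where the fold was 10.1 at pre-proB and 24.7 at proB, and 0.451 in Rescue, where it was 10.4 at pre-proB and 4.68 at proB. It was picked out because WT went up and Rescue down by more than 1.5-fold each. The summit of the WT proB peak lay at 41216051 and that of the Rescue pre-proB peak at 41216591, so the folds come from different places in the region. With 1 library per group the difference was not tested, and 7 of the 39 regions with a peak in all 4 libraries had ratios on opposite sides of 1.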

How the results depend on the processing

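The alternatives were lists of equal length (the best 76465 peaks of each), lists of 38232 peaks, a reciprocal overlap of 50%, no extension of the loci and, for Rescue, stages from the source names. Equal lists left 21 of 22 values within the main interval or within 1.5 times the main count, and no extension left 20 of 22. With equal lists, Erg KO cells lacked 1.61% of the WT pre-proB peaks, against 7.93% of the whole list. Among the lists of 38232 peaks, 57.7% of WT pre-proB peaks had no WT proB peak (whole lists 36.3%), 38.9% of WT proB peaks had no WT pre-proB peak (36%), 33.3% had no Rescue proB peak (17.4%), and 0% of WT pre-proB and 0% of WT preB peaks lacked a Rescue peak of their stage (5.7% and 9.09%). Those lists held 14, 10 and 6 Tcrb peaks over the WT stages, 17 in the Erg KO library and 19, 7 and 6 over the Rescue stages, and 12, 8 and 8, 13 and 14, 9 and 10 Tcrg peaks in the same order, and their fewer peaks follow from the cut. With a reciprocal overlap, which counts fewer peaks as shared by construction, 56.8% of WT pre-proB peaks had no WT proB peak (whole lists 47.1%), 47.5% of WT proB peaks had no pre-proB peak (44.8%) and 18.2% of WT preB peaks had no Rescue preB peak (14.7%). Without the extension Tcrg held 13 peaks in WT proB and 10 in WT preB. With the source names, 50% of WT pre-proB peaks had no Rescue pre-proB peak, against 35.6% of the list. No paired analysis was possible because each group had 1 library and no comparison came from a test. Depth limits what is called absent, since a summit needed 10 to 12 fragments.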
